A study of Mus musculus with 26 samples.

Results

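The adenylyl cyclases make cyclic AMP (cAMP) from ATP. The gene set described here held the soluble cyclase Adcy10 and the membrane cyclases Adcy1 to Adcy9. The members were taken by gene name from the array files, and the set was proposed because Adcy10 was lower in both ChREBP knockouts. There were 10 genes with 18 probes, of 37074 gene names and 56605 probes on the array. Testing required a full quality weight (spot found, positive, significant, well above background), either on 21 or more of the 26 arrays or on 75% or more of any single group. This left 8 of the 10 genes, with 13 of the 18 probes. Adcy2 (2 probes) and Adcy8 (3 probes) did not pass.

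RNA of inguinal subcutaneous white adipose tissue was hybridized to 1-colour whole-genome oligonucleotide arrays, with 1 array per mouse. All mice were C57BL6/J males killed after a fast of 24 h and 18 h of refeeding, with 20% glucose in the drinking water. Total ChREBP KO mice (n = 7) carried a whole-body null allele of Mlxipl, the gene of the glucose-responsive transcription factor ChREBP, and lacked both of its isoforms. ChREBPβ KO mice (n = 5) carried a whole-body CRISPR/Cas9 deletion of the exon that only the shorter isoform uses. WT mice of the total line (n = 7) and WT littermates of the ChREBPβ line (n = 7) were the controls. P-values measure the spread between these arrays, and in whole tissue fewer cells of a type and less RNA per cell cannot be told apart.

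Membrane adenylyl cyclases are the effectors of G protein-coupled receptors. The stimulatory G protein switches all of them on, while calcium, calmodulin, inhibitory G proteins and the beta-gamma subunits act on some of them only. In adipocytes, cAMP from these enzymes activates protein kinase A and thereby lipolysis, and in thermogenic fat cells it induces Ucp1. Adcy10 lies outside this scheme: it is not held in the membrane by the usual transmembrane domains, does not respond to G proteins, and is stimulated by bicarbonate and calcium. It is best known from sperm.

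Values are log2 intensities after quantile normalization, and a difference is a difference of group means on that scale. Intensities were used without subtraction of the background, so that changes of dim probes are understated. The level of a probe was not set against that of another probe. A difference was called at an adjusted p of 0.05 (limma, Benjamini-Hochberg over all 38832 tested probes), and all adjusted p-values below are from this fit. Median spot intensities ranged from 59 to 108 over the arrays, and median backgrounds from 15 to 23. Mlxipl itself (probe A_55_P2119957) had log2 differences of -2.21 in total ChREBP KO and -1.54 in ChREBPβ KO, and KO arrays were separate from WT arrays in both lines. Its probe A_55_P2728555 differed by -0.91 and -0.68 (the latter not called), and A_55_P2045158 by -0.14 and 0.04, neither of them called. Adipocyte markers were bright in every group, with a mean log2 intensity of the 9 markers between 15.02 and 16.21 per array.

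The 4 Adcy10 probes lie on chromosome 1 of mm9. The brightest, A_51_P256747, maps to 167505771 to 167506673 and its 60 bases span 903 bp, so that it crosses an exon junction (bases 4918 to 4977 of the transcript). A_55_P2715623 (167505853 to 167505912) and A_55_P2715618 (167506476 to 167506535) lie within the same stretch near the 3′ end. A_55_P2058995 (167452031 to 167452090, bases 1551 to 1610 of the transcript) lies far upstream of them. The brightest probe and the upstream probe are shown because they read different parts of the Adcy10 transcript and gave the largest and the smallest difference of the gene (5′ to 3′, from the array files, no part set in capitals).
A_51_P256747: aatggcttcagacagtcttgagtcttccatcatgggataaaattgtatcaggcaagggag
A_55_P2058995: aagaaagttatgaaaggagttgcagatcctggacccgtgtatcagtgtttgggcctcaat

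The Adcy10 promoter was searched for the E-box CACGTG, the core of the paired element that ChREBP binds, because Mlxipl is the gene deleted in these mice. The window from RefSeq is 250 bases before to 50 after the gene start, at chr1:165484933-165485232 of GRCm38.p6 on the plus strand, and the capitals mark the single motif match that was found, a CCAAT box.
Adcy10: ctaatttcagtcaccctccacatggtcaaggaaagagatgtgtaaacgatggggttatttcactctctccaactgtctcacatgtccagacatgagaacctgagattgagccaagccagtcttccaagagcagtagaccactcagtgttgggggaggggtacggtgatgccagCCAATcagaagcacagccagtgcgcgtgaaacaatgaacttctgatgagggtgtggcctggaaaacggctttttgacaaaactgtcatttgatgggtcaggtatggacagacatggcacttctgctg
CACGTG was not in the Adcy10 window and was in 7.15% of 32851 promoters of this length. The full carbohydrate response element was searched only as an exact pair of E-boxes at a fixed spacing, and was in 0 of these promoters. Because no promoter matched, this search cannot decide whether the Adcy10 window holds the element. Copies with mismatches were not searched. The cAMP response element TGACGTCA (1.79% of promoters), its core TGACG (20.8%), the TATA box TATAAA (13.6%) and the GC box GGGCGG (35.7%) were not in the Adcy10 window either, on any strand, and the CCAAT box was in 37.4% of promoters. Of the 8 members that had an entry, Adcy1 held an E-box (first base at -169 from the start) and Adcy7 and Adcy9 held the cAMP response element core. A match is a match of letters only.

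Adcy10 was low in both knockouts, and lower in total ChREBP KO. At the brightest probe its level in the WT of the total line was between 10.75 and 12.04, with a median of 11.35 (mean 11.35 ± 0.43, SD, n = 7). In total ChREBP KO it was between 6.47 and 7.72, with a median of 6.55 (mean 6.85 ± 0.49, SD, n = 7). All KO arrays lay far below all WT arrays. The log2 difference was -4.51 (SE 0.29), so that 4.40% of the WT signal remained, a 22.7-fold lower signal. Among the KO arrays, replicates 7 and 8 were the highest.

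In the ChREBPβ line the WT levels of Adcy10 were between 9.09 and 10.95, with a median of 10.01 (mean 10.10 ± 0.73, SD, n = 7). The ChREBPβ KO arrays had 9.01, 8.29, 9.02, 7.89 and 7.58 (mean 8.36 ± 0.65, SD, n = 5). The groups did not overlap, but the highest KO arrays lay only just below the lowest WT array. The log2 difference was -1.75 (SE 0.32), which left 29.8% of the WT signal (3.36-fold lower). The ChREBPβ effect minus the total effect was 2.76 (SE 0.44), so that the fall was smaller. These values chose the gene and are given without a test. As background, the groups did not overlap in 14.7% of all tested genes in the total line and in 0.378% in the ChREBPβ line, and 45.9% and 0.0472% of genes were called.

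The other Adcy10 probes gave the same order of groups. The log2 differences in total ChREBP KO were -4.39 (SE 0.31) at A_55_P2715623, -3.51 (SE 0.24) at A_55_P2715618 and -1.95 (SE 0.21) at the upstream probe A_55_P2058995. In ChREBPβ KO they were -1.71 (SE 0.34), -1.45 (SE 0.26) and -0.80 (SE 0.23). The 4 probes each separated KO from WT arrays completely, in both lines. The upstream probe was dim: its spots had intensities of 91 to 232 in the WT of the total line and 29.5 to 35 in total ChREBP KO, close to the background, where 6 of 7 arrays were well above it. Its smaller differences were therefore measured close to the background. With background-subtracted signals the differences at the brightest probe were -4.83 in total ChREBP KO and -1.82 in ChREBPβ KO.

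**Figure D1:**
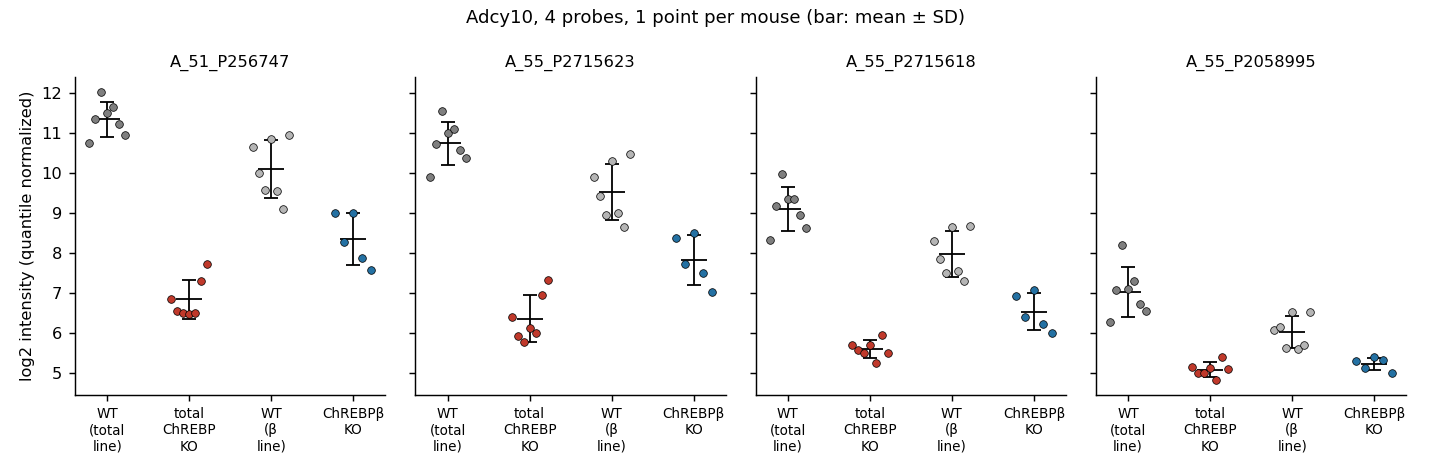
Log2 intensity of the 4 Adcy10 probes (1 panel each, y axis shared) in the 4 groups on the x axis, with 1 point per mouse and the mean ± SD as a bar. At every probe the total ChREBP KO arrays lie below all WT arrays of their line, and the ChREBPβ KO arrays lie just below the WT arrays of theirs; at the brightest probe the group means were 11.35, 6.85, 10.10 and 8.36.

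Ordered by the brightest probe, Adcy10 was highest in the WT of the total line, followed by the WT of the ChREBPβ line, ChREBPβ KO and total ChREBP KO. The ranges of the first and second group overlapped (10.75 to 12.04 and 9.09 to 10.95), as did those of the third and the last (7.58 to 9.02 and 6.47 to 7.72). The difference between both WT groups was -1.25 (SE 0.29, limma adjusted p = 0.00111). All 4 probes were called lower in the WT of the ChREBPβ line, with differences between -1.25 and -1.0 (45.2% of all probes were called in this comparison). The choice of the gene used the arrays of both WT groups, though not their difference, so this test is not independent of the choice. On these arrays, mice with an intact Mlxipl gene differed in Adcy10 between the lines. At the upstream probe this difference (-1.0) was not smaller than that between ChREBPβ KO and its WT (-0.80).

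Within the wash batches that the labels give, the Adcy10 difference was between -5.37 and -4.18 in total ChREBP KO over 4 batches, and -2.21, -0.80 and -2.51 in ChREBPβ KO over the 3 batches that held both groups, with 1 to 3 arrays per group. Markers of brown or beige adipocytes moved with Adcy10 in the total line: of the 6 markers tested, 5 were called lower and 1 higher in total ChREBP KO, and the mean log2 intensity of the list was between 10.91 and 13.77 in WT and between 9.99 and 11.02 in KO. In the ChREBPβ line it was between 8.86 and 10.80 in WT and between 8.84 and 9.62 in KO, with 0 of 6 called. With the list as a covariate, an alternative added after seeing the data, the Adcy10 difference was -3.46 (SE 0.44) in total ChREBP KO and -1.50 (SE 0.29) in ChREBPβ KO. Between both WT groups it was 0.09 (adjusted p = 0.911), but there the marker levels did not overlap and cannot be told apart from the line. The call between both WT groups was also lost with the lymphocyte list as a covariate (-1.32, limma adjusted p = 0.231), whose levels did not overlap either. It was lost with the slide as a fixed block too (-1.15, adjusted p = 0.102). In these fits 1389 and 11986 of all probes were called between both WT groups, against 17552 in the main fit.

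The membrane cyclases were compared with Adcy10 in the same animals. Of the 7 tested genes, each at its brightest probe, 3 were called in total ChREBP KO, 2 higher and 1 lower, against 45.9% of all tested genes (26.2% higher and 19.7% lower). Their median log2 difference was 0.10, and that of all genes was 0.05. Adcy5 was higher, Adcy6 was slightly higher and Adcy7 was lower, while Adcy1, Adcy3, Adcy4 and Adcy9 missed the threshold.

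Adcy5 and Adcy6 are close relatives that calcium and inhibitory G proteins restrain. Adcy5 had levels between 10.58 and 11.51 in the WT of the total line (median 11.22) and between 11.80 and 12.76 in total ChREBP KO (median 12.43). The groups did not overlap, and the log2 difference was 1.24 (SE 0.21, limma adjusted p = 2.95e-05), or 2.36-fold. Adcy6 had levels between 11.04 and 11.49 in WT (median 11.24) and between 11.49 and 11.79 in KO (median 11.66). It was higher by 0.37 (SE 0.07, limma adjusted p = 0.00026), or 1.29-fold. The Adcy6 groups only just did not overlap, with the highest WT array and the lowest KO array both at 11.49. Its other probe was higher by 0.39 (SE 0.10, limma adjusted p = 0.00198), also with no overlap. As background, the groups did not overlap in 14.7% of all genes. Both Adcy6 probes thus gave a small difference of the same size. Adipocyte markers moved the same way, with 8 of 9 called higher and a list level between 15.02 and 15.66 in WT and between 15.95 and 16.19 in KO, and their part in these differences was not tested.

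Adcy7 is stimulated by the beta-gamma subunits of G proteins and is abundant in blood cells. Its levels were between 10.46 and 12.02 in the WT of the total line (median 11.52) and between 9.08 and 10.90 in total ChREBP KO (median 10.17). The groups overlapped through the lowest WT array, replicate 4, and the log2 difference was -1.42 (SE 0.29, limma adjusted p = 0.0003), 2.67-fold lower. All 15 lymphocyte markers were called lower in the same comparison, with a mean log2 intensity of the list between 11.15 and 12.82 in WT and between 8.09 and 11.52 in KO. Of 8 macrophage markers, 3 were called lower, with a list level between 11.13 and 12.77 in WT and between 10.97 and 11.54 in KO. In the WT of the ChREBPβ line, Adcy7 was between 9.53 and 10.83 at lymphocyte levels of 7.40 to 8.37. With the lymphocyte list as a covariate, also added after seeing the data, the Adcy7 difference was -0.41 and was not called (adjusted p = 0.377), while that of Adcy5 was 1.09 (adjusted p = 0.0105), and 16.1% of all genes were called. The lymphocyte level overlapped little between WT and KO of the total line, so that fit can hardly separate it from the genotype. The part of these cells in the Adcy7 difference was not tested.

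The calcium and calmodulin-stimulated Adcy1 differed by 0.38 between total ChREBP KO and WT (SE 0.26, adjusted p = 0.246), with levels between 5.39 and 6.27 in WT and between 5.83 and 6.76 in KO. Adcy3, which is expressed in adipocytes and in olfactory neurons, had a difference of 0.09 (SE 0.12, adjusted p = 0.555). Adcy4, of the same branch as Adcy7, had -0.06 (SE 0.11, adjusted p = 0.656), and its 95% confidence interval was -0.28 to 0.16. The widely expressed Adcy9 had 0.10 (SE 0.06, adjusted p = 0.148), with an interval of -0.02 to 0.22. For these last 3 genes a change of the size seen for Adcy5 lay outside the intervals; that of Adcy3 was -0.16 to 0.35.

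**Figure D2:**
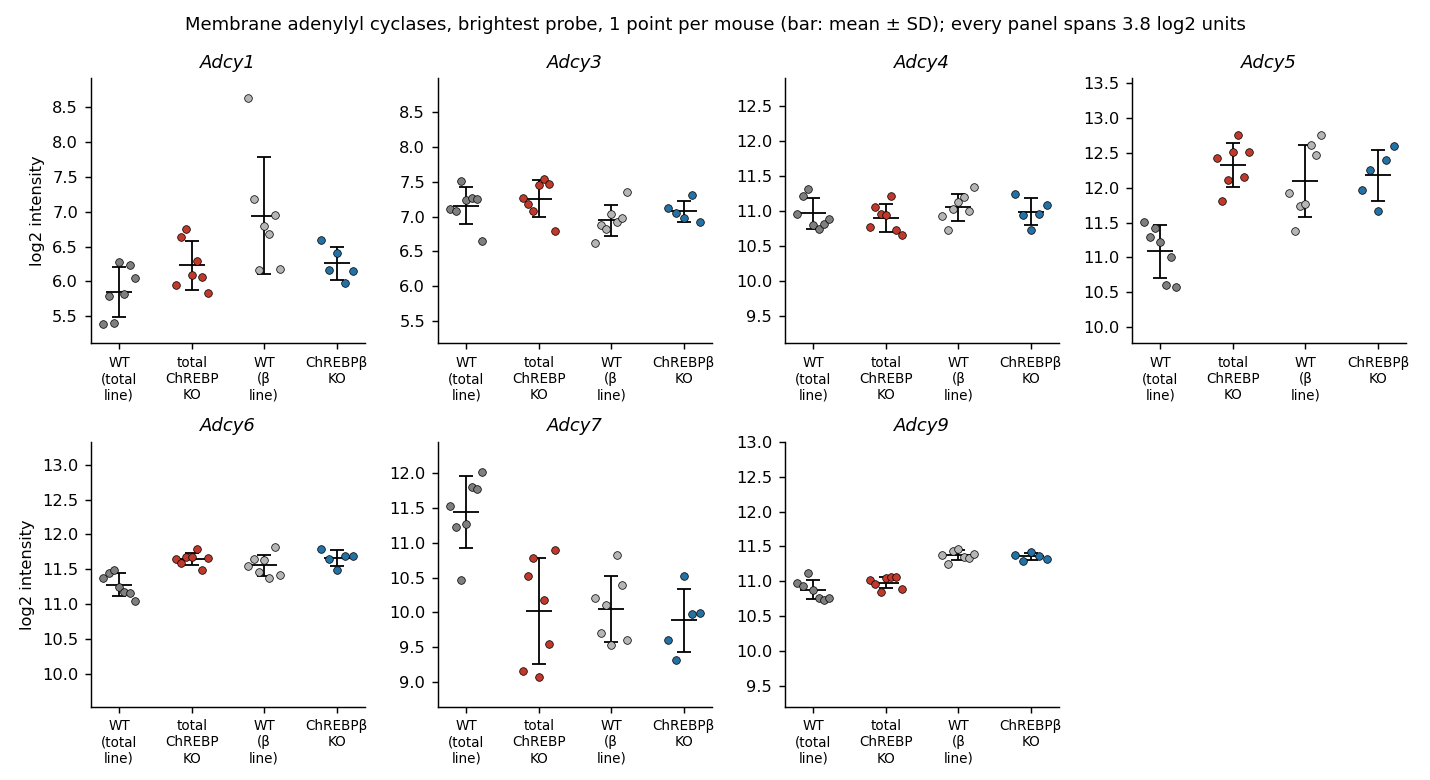
Log2 intensity of the 7 tested membrane cyclases at their brightest probe in the 4 groups on the x axis, with 1 point per mouse and the mean ± SD as a bar; the y axes start at different levels but cover the same span. Adcy5 and Adcy6 lie higher in total ChREBP KO than in its WT, Adcy7 lies lower, and the ChREBPβ KO arrays overlap with their WT in every panel.

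In ChREBPβ KO, 0 of the 7 membrane cyclases were called by limma, against 0.0472% of all genes, and 1 of 7 had an unadjusted p under 0.05. Their median log2 difference was -0.02, and 0.00 over all genes. The gene with the small unadjusted p was Adcy1, with a difference of -0.68 (SE 0.29, 95% confidence interval -1.28 to -0.09, adjusted p = 0.554), and of -0.53 at its other probe. Its levels were 6.59, 6.17, 6.41, 5.97 and 6.16 in KO and between 6.16 and 8.64 in WT, with a median of 6.80. The highest WT array, replicate 1, stood apart, and without it the difference was -0.40 (adjusted p = 0.76). Replicate 1 also had the highest level of the 5 nerve and Schwann cell markers (11.59 against 10.15 to 10.94 on the other arrays of that group), and their part in the Adcy1 value was not tested.

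Adcy5 had levels of 11.97, 12.25, 11.67, 12.39 and 12.60 in ChREBPβ KO and between 11.38 and 12.76 in its WT. The groups lay on top of each other, with a difference of 0.08 (SE 0.22, adjusted p = 0.981) and a 95% confidence interval of -0.38 to 0.55. Adcy7 had 9.61, 9.32, 10.52, 9.98 and 9.998 in ChREBPβ KO and between 9.53 and 10.83 in WT (difference -0.17, SE 0.32, adjusted p = 0.966). Its interval was wide, -0.82 to 0.48. Adcy6 differed by 0.10 (SE 0.08, adjusted p = 0.84), Adcy3 by 0.13 (SE 0.13), Adcy4 by -0.06 (SE 0.12) and Adcy9 by -0.02 (SE 0.06). The other Adcy6 probe had a difference of 0.26 (adjusted p = 0.537, unadjusted p = 0.0211).

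**Figure D3:**
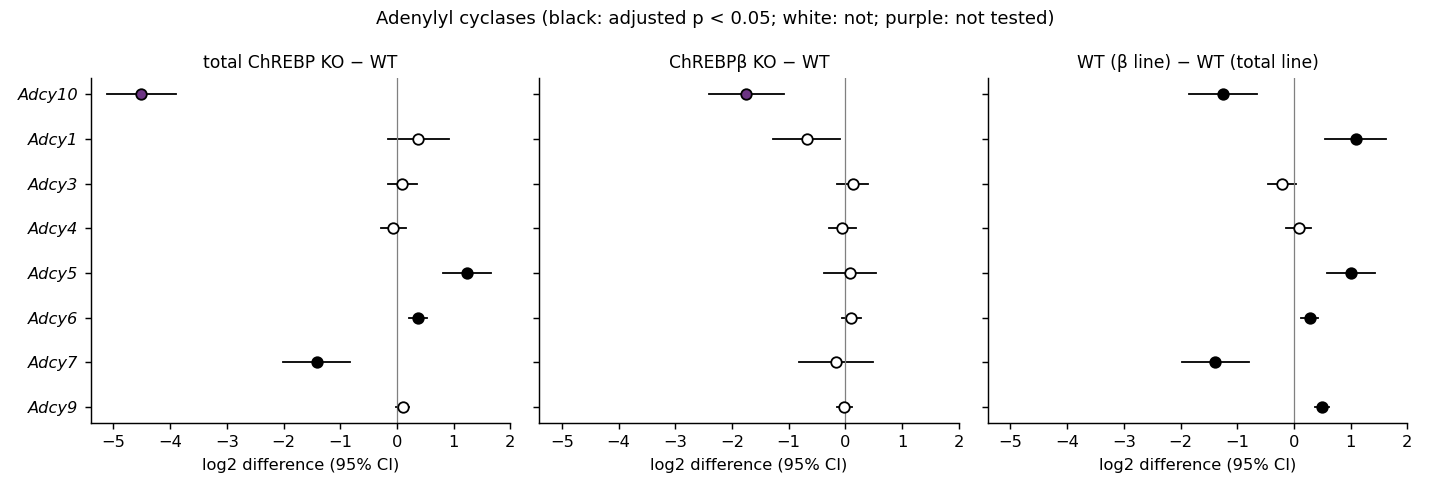
Log2 differences (x axis, with 95% confidence intervals as lines) of the 8 tested cyclases in total ChREBP KO, in ChREBPβ KO and between both WT groups. Black points were called, white points were not, and purple points were not tested because these values chose the gene; Adcy10 lies at -4.51 and -1.75 in the KO panels, where the membrane cyclases lie between -1.42 and 1.24.

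The effects of both knockouts were then compared with each other. The difference between the effects (ChREBPβ effect minus total effect) was called for 2 of the 7 membrane cyclases, against 23.1% of all genes. It was -1.15 for Adcy5 (SE 0.30, limma adjusted p = 0.00845) and 1.25 for Adcy7 (SE 0.43, adjusted p = 0.0375). The Adcy5 call was lost with the lymphocyte list as a covariate (-0.99, limma adjusted p = 0.128) and with the slide as a fixed block (-0.55, adjusted p = 0.515). In these fits 2392 and 612 of all probes were called for this difference, against 8714 in the main fit. The Adcy7 call was lost when any of 12 of the 26 arrays was left out (adjusted p between 0.056 and 0.0838) and with the lymphocyte list as a covariate (0.17, adjusted p = 0.86). Adcy1 lay at the threshold, with -1.06 at its brightest probe (SE 0.39, adjusted p = 0.0508) and -0.96 at its other probe (SE 0.31, adjusted p = 0.0286).

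Between the WT mice of both lines, 5 of the 7 membrane cyclases were called, 4 higher and 1 lower in the ChREBPβ line, against 45.6% of all genes (26.4% higher and 19.2% lower). Adcy9 did not overlap between both WT groups, with levels between 10.74 and 11.12 in the total line and between 11.25 and 11.47 in the ChREBPβ line, and was higher by 0.49 (SE 0.06, adjusted p = 2.01e-07); groups did not overlap in 17% of all genes. Adcy1 was higher by 1.09 (SE 0.26, adjusted p = 0.00138), Adcy5 by 1.01 (SE 0.21, adjusted p = 0.000273) and Adcy6 by 0.28 (SE 0.07, adjusted p = 0.00329), though the other Adcy6 probe was not called (0.18, adjusted p = 0.129). Adcy7 was lower by 1.39 on the log2 scale (SE 0.29, adjusted p = 0.000336). For Adcy5, the WT of the ChREBPβ line, at a mean of 12.09, was thus nearer to total ChREBP KO (12.33) than to the WT of the total line (11.09), and the same held for Adcy6 (11.56, 11.65 and 11.28) and Adcy7 (10.05, 10.02 and 11.44). For Adcy10 it did not hold (10.10, 6.85 and 11.35). Lymphocyte markers were called lower in the WT of the ChREBPβ line for 15 of 15 genes, with list levels between 7.40 and 8.37 against 11.15 to 12.82. The lymphocyte level did not overlap between both WT groups, so a fit with it as a covariate can hardly separate it from the line. In that fit 0 of the 7 membrane cyclases and 4% of all genes were called, and Adcy7 was 0.58 (adjusted p = 0.47).

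Adcy2 and Adcy8, which are brain cyclases, were at or near the background in this tissue. The brighter Adcy2 probe (A_51_P337523) was well above background on 19 of 26 arrays with intensities of 22 to 53.5, and its other probe on 7. Of the 3 Adcy8 probes, A_51_P303061 was well above background on 3 arrays and the others on 0. No difference is given for them.

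The partners of the cyclases were read from 10 lists of cAMP and bicarbonate genes. In total ChREBP KO, 48 of 88 tested genes were called (54.5%, against 45.9% of all genes), 30 higher and 18 lower. The counts of the single lists below are to be read against the same share of all genes, 45.9% (26.2% higher and 19.7% lower). In ChREBPβ KO, 0 of 88 were called, against 0.0472% of all genes. In the difference of the effects 27 were called (30.7%, against 23.1% of all genes). Between both WT groups, without any knockout, 50 of 88 were called (56.8%, against 45.6% of all genes), 30 higher and 20 lower in the ChREBPβ line. All 48 called genes kept their direction with the other scalings and in the table of the authors, and 39 were still called when arrays were scaled to the 75th percentile. With the lymphocyte list as a covariate, 21 of 88 pathway genes (and 16.1% of all genes) were called. The named genes that kept their call in that fit were Pck1, Pde1a, Pde3b, Pde7b, Prkar2b, Prkaca, Popdc2, Crem, Nr4a1, Nr4a2, Car3, Car6, Car13 and Akap1, and the other named genes lost it.

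Of the G protein alpha subunits, 2 of 6 were called in total ChREBP KO, both higher. The inhibitory Gnai1 was higher by 0.42 (SE 0.13, adjusted p = 0.0118). The stimulatory Gnas was higher by 0.39 (SE 0.09, adjusted p = 0.00139), but by 0.14 and without a call after scaling to the 75th percentile. With the lymphocyte list as a covariate Gnai1 was 0.14 and Gnas 0.09, neither of them called. Both had smaller positive differences, 0.26 and 0.19, in ChREBPβ KO that were not called.

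Of the cAMP phosphodiesterases, which degrade cAMP, 9 of 16 were called in total ChREBP KO, 5 higher and 4 lower. Pde3b, the main phosphodiesterase through which insulin lowers cAMP in adipocytes, was between 12.32 and 12.86 in WT and between 13.71 and 14.06 in KO. The groups did not overlap, and it was higher by 1.30 (SE 0.09, adjusted p = 7.48e-11), or 2.47-fold. The calmodulin-dependent Pde1a was higher by 1.33 (SE 0.14, adjusted p = 6.26e-08) and Pde7b by 0.86 (SE 0.11, adjusted p = 1.67e-06). In ChREBPβ KO, Pde3b differed by 0.05 and Pde1a by 0.26, neither of them called. The part of the higher adipocyte markers in these differences was not tested.

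Of the protein kinase A subunits and inhibitors, 5 of 9 were called, 3 higher and 2 lower. Prkar2b, the regulatory subunit that dominates in adipocytes, was higher by 1.08 (SE 0.09, adjusted p = 1.23e-09), and the catalytic subunit Prkaca by 0.79 (SE 0.11, adjusted p = 3.46e-06). The inhibitor Pkia was higher by 0.87 (SE 0.20, adjusted p = 0.000771), but not called with the lymphocyte list (0.45) or the brown or beige list (0.25) as a covariate. Of the other cAMP effectors 2 of 5 were called: the cAMP-binding Popdc2 was higher by 1.25 (SE 0.16, adjusted p = 1.1e-06), and Rapgef4, a cAMP-gated exchange factor for Rap, was lower by 1.21 on the log2 scale (SE 0.20, adjusted p = 2.95e-05). The Rapgef4 call was lost with the lymphocyte list as a covariate (-0.37). Of the A-kinase anchoring proteins, 5 of 11 were called, with Akap12 (0.59) and Akap5 (0.54) higher and Akap1 (-0.24) lower; Akap5 lost its call with each of 3 other scalings of the scanner signals. With the brown or beige list as a covariate, Akap12 was -0.06 and Akap1 0.15, and both lost their call.

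Among the CREB family and its coactivators, 3 of 6 were called. Crem was between 8.18 and 8.62 in WT and between 9.13 and 9.68 in total ChREBP KO, higher by 0.98 (SE 0.08, adjusted p = 8.16e-10) with no overlap. Creb1 was lower (-0.33, SE 0.08) and so was Atf1 (-0.18, SE 0.06), but with the lymphocyte list as a covariate neither was called (-0.17 and -0.18). Among 8 genes that cAMP is known to induce, 5 were called, 1 higher and 4 lower. Pck1, which in adipocytes serves the synthesis of glycerol 3-phosphate, was between 13.19 and 14.21 in WT and between 16.42 and 16.76 in KO. It was higher by 2.74 (SE 0.18, adjusted p = 9.61e-12), or 6.67-fold, with no overlap. The orphan nuclear receptors Nr4a1 (-1.32, SE 0.27) and Nr4a2 (-1.24, SE 0.17) were lower. The median difference of the list was -0.84, against 0.05 over all genes.

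In ChREBPβ KO, Pck1 had 14.63 to 16.30 against 14.28 to 14.95 in its WT, a difference of 0.76 (SE 0.19, adjusted p = 0.244) that was not called. Crem differed by 0.10 and Nr4a1 by -0.05. The Pck1 groups overlapped, but the median KO array (15.57) lay above all WT arrays. Pck1 was called without KO replicate 4 (0.99, adjusted p = 0.0102) and with array weights (0.86, adjusted p = 0.0371).

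**Figure D4:**
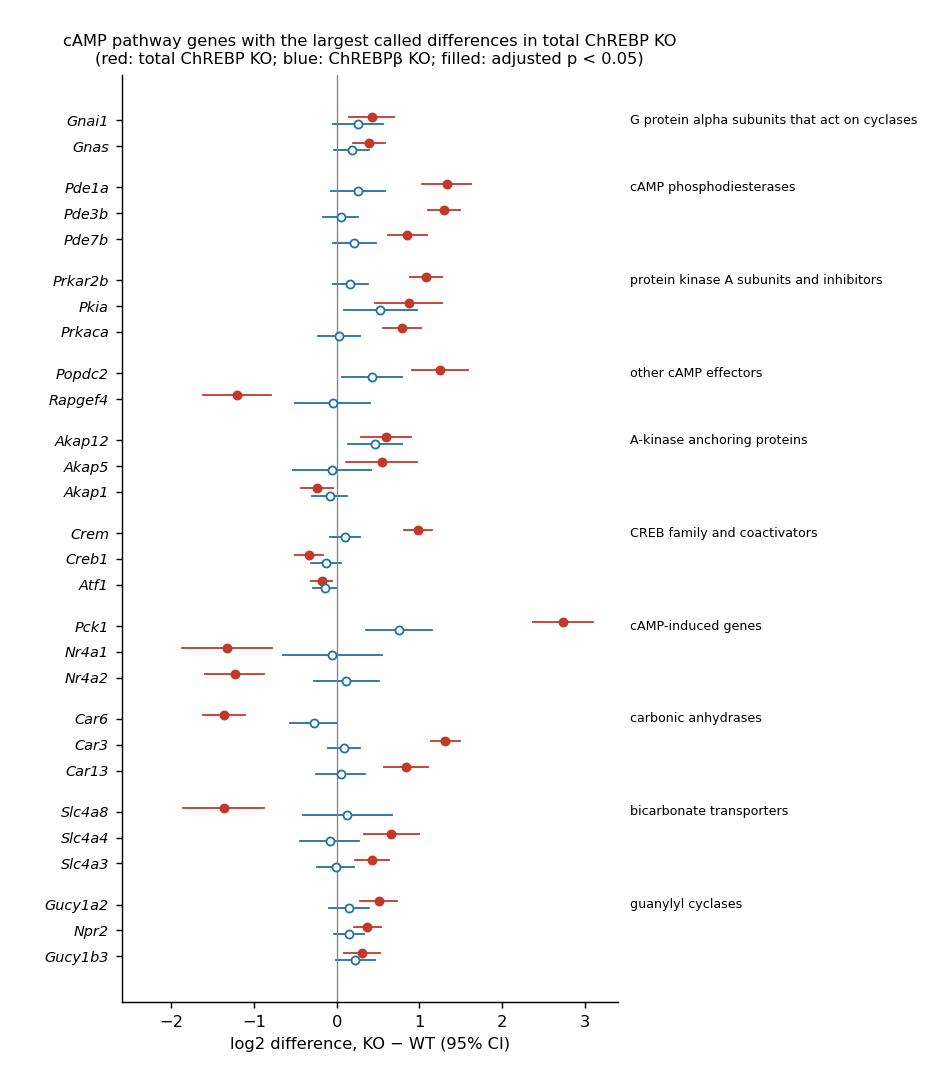
Log2 differences (x axis, with 95% confidence intervals as lines) of the called genes with the largest difference in total ChREBP KO, up to 3 per list, in total ChREBP KO (red) and ChREBPβ KO (blue), with called genes filled. Pck1 is the largest at 2.74, genes of most lists lie on both sides of 0 in red, and 0 of the blue points are filled.

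Adcy10 is the bicarbonate-stimulated cyclase, so the genes that make and carry bicarbonate were read as well. Of the carbonic anhydrases, 8 of 11 were called in total ChREBP KO, 6 higher and 2 lower, against 45.9% of all genes. Car3, an abundant adipocyte protein with low activity, was between 16.69 and 17.29 in WT and between 18.11 and 18.36 in KO, higher by 1.31 (SE 0.09, adjusted p = 9.86e-12) with no overlap, and Car13 was higher by 0.84 (SE 0.13). The secreted Car6 was not well above background on any total ChREBP KO array and was at least 2.3-fold lower there (adjusted p = 4.46e-09). Here the bound sets the mean of the WT arrays against the dimmest signal that still counted as well above background, averaged over the KO arrays.

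Of the bicarbonate transporters, 6 of 8 were called, 4 higher and 2 lower. The sodium bicarbonate cotransporter Slc4a4 was higher by 0.66 (SE 0.16, adjusted p = 0.00156) and the anion exchanger Slc4a3 by 0.42 (SE 0.10, adjusted p = 0.00121). Slc4a8 was lower (-1.37, SE 0.24, adjusted p = 5.17e-05). With the lymphocyte list as a covariate all 3 lost their call, with 0.49 for Slc4a4, 0.27 for Slc4a3 and -0.33 for Slc4a8. Of the guanylyl cyclases, relatives that make cyclic GMP, 3 of 8 were called, all higher: Gucy1a2 (0.51), the natriuretic peptide receptor Npr2 (0.37) and Gucy1b3 (0.30). With the lymphocyte list as a covariate they were 0.30, 0.21 and 0.05, and none of the 3 was called.

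The genes around Adcy10 were read to see whether its neighbours differed too. In RefSeq, the order of genes is Tiprl, Gpr161, Dcaf6, Mpc2, Adcy10, Mpzl1, Rcsd1, Creg1 and Cd247. Within 300 kb of the Adcy10 probes, 23 other probes were tested, of which 14 were called in total ChREBP KO, 2 higher and 12 lower, against 45.6% of all probes. In ChREBPβ KO 0 of 23 were called, against 0.0361% of all probes. Between both WT groups, without any knockout, 14 of 23 were called as well, against 45.2% of all probes. Of these, 3 were higher and 11 lower in the ChREBPβ line. At their brightest probes the differences were -1.31 for Rcsd1, -1.37 for Cd247, -0.38 for Dcaf6 and 1.19 for Gpr161.

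The nearest probe belonged to Mpzl1, a cell surface glycoprotein, 15780 bp away, which differed by 0.18 (SE 0.10, adjusted p = 0.151) in total ChREBP KO. On the other side, Mpc2, a subunit of the mitochondrial pyruvate carrier, was lower at both probes (-0.33, SE 0.12, adjusted p = 0.0307, and -0.51, SE 0.13, adjusted p = 0.00324). Dcaf6, a substrate receptor of ubiquitin ligases, was lower by 0.96 on the log2 scale at its brightest probe (SE 0.14, adjusted p = 5.14e-06) with no overlap. The lymphocyte genes Rcsd1 (-0.95 to -1.30 over 3 probes) and Cd247, the T cell receptor zeta chain (-0.88 at its brightest probe), were lower as well. Gpr161 (0.27, adjusted p = 0.0472) and the transcript AI844869 (0.20, adjusted p = 0.0434) were higher, but lost their call when arrays were scaled to the 75th percentile. The transcription factor Pou2f1 was lower at both probes (-0.29 and -0.42), and Creg1 differed by -0.10 and -0.11 without a call.

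In ChREBPβ KO, Dcaf6 differed by -0.71 (SE 0.15, adjusted p = 0.105) and -0.64 at its other probe, and Mpc2 by -0.40 and -0.53 (adjusted p = 0.272). The Mpc2 groups overlapped at its brightest probe (-0.40) and did not overlap at the dimmer one. At the brightest probes, groups did not overlap in 0.378% of all genes. Mpzl1 differed by 0.10 and Rcsd1 by -0.07 to 0.03.

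**Figure D5:**
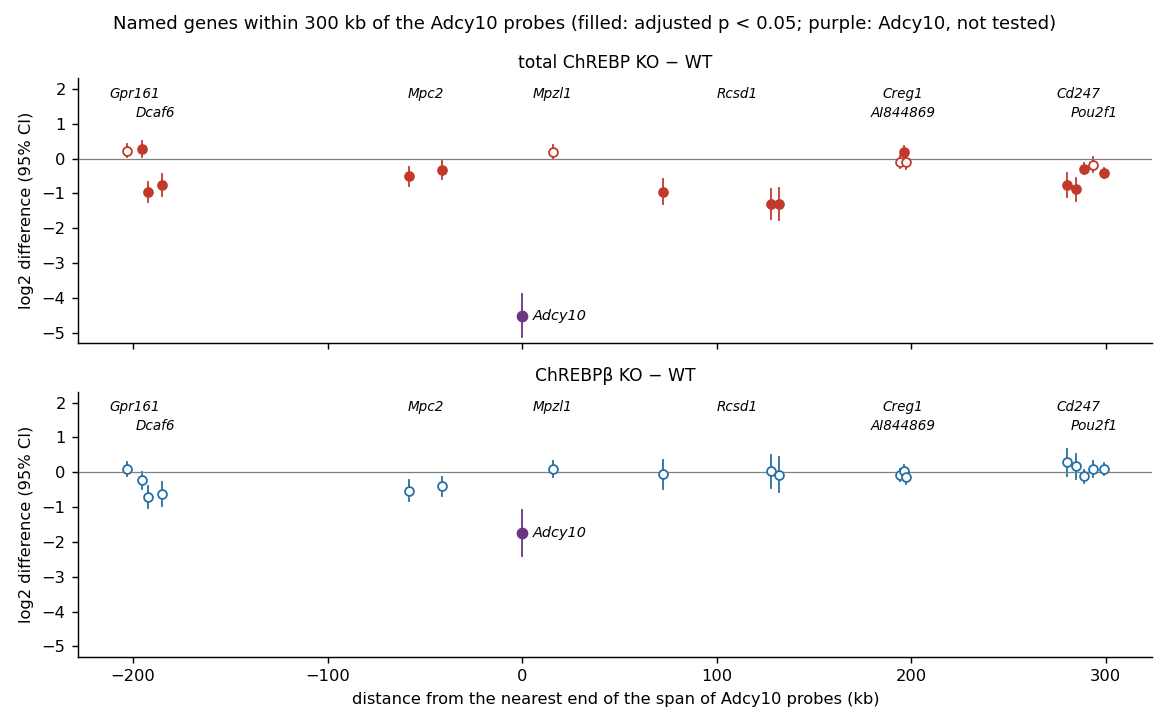
Log2 differences (y axis, with 95% confidence intervals as lines) of named genes within 300 kb of the Adcy10 probes, against the distance in kb from the nearest end of the span of Adcy10 probes, in total ChREBP KO (top) and ChREBPβ KO (bottom), with called probes filled. Adcy10 (purple, not tested) lies at -4.51 and -1.75, while the named neighbours in the top panel lie between -1.30 and 0.27.

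Finally, the genes whose profile over the 26 arrays was most like that of Adcy10 were found by the root mean square difference of the centred log2 values, among 15149 genes. They were Pth1r, the parathyroid hormone receptor, at 0.55, the small Maf factor Maff at 0.62, the ATP citrate lyase Acly at 0.65, Ttc25 at 0.74 and the acetyl-CoA carboxylase Acaca at 0.76, with a median of 1.86 over all these genes. The other Adcy10 probes were at 0.12, 0.48 and 1.1. Since they were chosen by their likeness, their differences are a description only. In total ChREBP KO Pth1r differed by -4.26, Maff by -3.74, Acly by -3.70, Acaca by -3.43 and Ttc25 by -3.33. In ChREBPβ KO they differed by -1.34, -1.06, -0.67, -0.47 and -0.50 in the same order, each by less than Adcy10 (-1.75).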

How the data were processed

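Inguinal adipose tissue RNA of 26 mice in 4 groups, taken from the sample titles, was measured with 1 array per mouse. The deposited scanner files hold spot intensity values on a linear scale, made by the authors with Agilent Feature Extraction 10.10.1.1. A deposited table holds log2 values by the authors (quality filter, quantile normalization, median of replicated probes), which was used as an alternative. The main values were recomputed from the median spot intensity with the steps of the study's methods, with the filter scaled to 26 arrays, and 97 values of outlier spots were set to missing. A mean per group was fitted with limma 3.58.1 in R 4.3.3 (22 residual degrees of freedom), after the fit had been tested on simulated data. A gene was represented by its brightest tested probe.

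The members and gene lists were chosen with earlier results of these data known. Genes to be named were all cyclases, the 3 called genes with the largest difference in total ChREBP KO per list and every called gene in ChREBPβ KO, the genes within 300 kb of Adcy10, and the 5 most similar profiles. Gene names and mm9 positions were those of the array files, and exon annotation of mm9 was not used here. The arrays lay on 15 slides in 4 wash batches, scanned on 2 days. Alternatives were other filters, outlier spots kept, scaling to the 75th percentile, normexp background correction, the authors' table, blocks for wash batch, slide, scan day or replicate number, array weights, only the groups compared, another probe, each array left out, and marker levels as covariates.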

Additional observations from a re-analysis of the deposited data

Results flagged for a closer look

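In Dixon's test for a single outlying array, 2 of 52 sets of arrays (13 probes in 4 groups) passed the 95% critical value, and chance gives about 1 in 20. In the WT of the ChREBPβ line, replicate 1 had an Adcy1 level of 8.64 at A_55_P2723574, with the next array at 7.18. In the WT of the total line, replicate 8 had an Adcy6 level of 5.87 at A_55_P2744107, with the next array at 6.09.

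The effect of ChREBPβ KO differed from that of total ChREBP KO in an interaction test (limma, adjusted p of 0.05) for the following named genes, given as ChREBPβ effect minus total effect on the log2 scale. Among cyclases it was -1.15 for Adcy5 and 1.25 for Adcy7. Among the phosphodiesterases and kinase genes it was -1.07 for Pde1a, -1.25 for Pde3b, -0.64 for Pde7b, -0.76 for Prkaca and -0.91 for Prkar2b. Among the effectors and cAMP-induced genes it was 1.16 for Rapgef4, -0.82 for Popdc2, -0.88 for Crem, 1.27 for Nr4a1, 1.35 for Nr4a2 and -1.98 for Pck1. Among the bicarbonate genes it was -1.22 for Car3, 1.08 for Car6 (whose total effect is only a bound, so that its size is not known), -0.79 for Car13, -0.43 for Slc4a3, -0.75 for Slc4a4 and 1.5 for Slc4a8. Near Adcy10 it was -0.51 for Gpr161, 0.88 for Rcsd1 and 1.05 for Cd247. Both KO groups were compared with different WT groups, which differed in many of these genes. The pathway genes were named for their large difference in total ChREBP KO, which is part of this contrast. Their calls here are therefore a description only. Of all genes, 23.1% were called for this difference.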

How the results depend on the processing

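At its brightest and second brightest probe the Adcy10 difference kept its direction in both KO groups under all alternatives, between -4.83 and -3.46 in total ChREBP KO and between -1.93 and -1.50 in ChREBPβ KO. The covariates and the scan day block were chosen after the data had been seen. When arrays were scaled to the 75th percentile, the share of called probes that were higher in total ChREBP KO was 39.9% (median signal) or 44.2% (processed signal) against 57.7%, between both WT groups 33.3% or 40.9% against 57.0%, and for the difference of the effects 65.1% or 56.9% against 43.8%. The median of all probes between both WT groups moved from 0.03 to -0.13 with the median signal.

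The count of called membrane cyclases for the difference of the effects was 0 with the slide as a fixed block, 4 with array weights, 0 with the lymphocyte list and 0 with the lymphocyte and muscle lists as covariates, and 1 to 3 when each array was left out. Between both WT groups it was 0 and 0 with these covariates and 2 with the brown or beige list. Of the pathway genes in total ChREBP KO, 25 were called with full weight on all arrays (52 tested), 26 with the slide block, 21 with the lymphocyte list and 18 with both lists. For the difference of the effects these counts were 15, 4, 11 and 11, and between both WT groups 26, with 2 and 2 under the covariates and 26 with the brown or beige list. The calls over all probes fell as well. In total ChREBP KO they went from 17691 to 10559, 8386, 6056 and 5795 under these 4 settings. For the difference of the effects they went from 8714 to 5456, 612, 2392 and 2345. Between both WT groups they went from 17552 to 10180 with full weight, 1389 and 1238 under the covariates and 9997 with the brown or beige list. In ChREBPβ KO, 1 gene (Pck1) was called with array weights, and 0 to 1 when each array was left out. Over all probes, 59 were called there with array weights, against 14 in the main fit.

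Some differences reversed. Adcy10 between both WT groups, called at -1.25, was 0.094 with the brown or beige list. Adcy3 in total ChREBP KO was -0.0077 (processed signal) and -0.063 (median signal) at the 75th percentile, -0.030 with the slide block, -0.15 with the lymphocyte list and -0.071 with both lists. With the brown or beige list Adcy3 went the other way in total ChREBP KO, to 0.61, the highest value over the alternatives. Its lowest limma adjusted p in total ChREBP KO over the alternatives was 0.00727. With the same list its difference of the effects was -0.36 and its WT difference 0.44. The difference of the effects was -0.042 to 0.12 with arrays left out. Adcy4 in total ChREBP KO was 0.023 with array weights, 0.017 with the lymphocyte list, 0.094 with both lists and 0.082 with the brown or beige list. In ChREBPβ KO it was 0.13 with the slide block and -0.12 to 0.0077 with arrays left out, between both WT groups -0.087 with the slide block, and for the difference of the effects -0.025, -0.080, -0.15 and -0.11 under the first 4 settings and -0.057 to 0.070 with arrays left out. In ChREBPβ KO, Adcy5 was -0.033 to 0.21 with arrays left out and Adcy7 was 0.071 with the slide block. Adcy7 between both WT groups, called at -1.39, was 0.58 and 0.54 with the lymphocyte list and both lists. Adcy9 in total ChREBP KO was -0.013 and -0.015 with them, and its difference of the effects was 0.0020 and 0.0041. The cause of these changes was not tested.

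Same-numbered arrays shared only a number: the correlation of their deviations was -0.36 to 0.51 in the total line (over 0.1 in 3 of 6) and -0.33 to 0.14 in the ChREBPβ line (1 of 4), and each array correlated best with its own number in 2 of 6 and 0 of 4. With the replicate block, Adcy10 differed by -4.41 and -1.80, the counts of called membrane cyclases were 3, 0 and 2, those of pathway genes 38, 0 and 19, and Adcy4 in ChREBPβ KO was 0.0080. For the difference of the effects Adcy7 lost its call under the block (1.23, adjusted p = 0.0738) and Adcy1 gained one (-1.30, adjusted p = 0.029). Both WT groups could not be compared under the block, and a fit of only the groups compared was not run for the difference of the effects.

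Without WT replicate 4 of the total line, Adcy9 was called in total ChREBP KO (0.14, adjusted p = 0.0276) and Adcy6 for the difference of the effects (-0.30, adjusted p = 0.0412). Without WT replicate 8 of that line, Adcy3 was called between both WT groups (-0.30, adjusted p = 0.0384), and without any of 8 arrays Adcy1 was called for the difference of the effects. Signal over background limits what can be said of Adcy2, Adcy8 and the upstream Adcy10 probe.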
